A study of Mus musculus with 6 samples.

Results

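Notch signaling was examined in Eda-/- mammary buds through 7 genes chosen by name, of 25949 probe sets measured in all. They comprise 2 receptor genes, Notch1 (ENSMUSG00000026923_at) and Notch2 (ENSMUSG00000027878_at), 3 ligand genes, Jag1 (ENSMUSG00000027276_at), Jag2 (ENSMUSG00000002799_at) and Dll1 (ENSMUSG00000014773_at), and 2 target genes, Hes1 (ENSMUSG00000022528_at) and Hey1 (ENSMUSG00000040289_at). All 7 had a probe set, and no filter on level was set in the limma fit described here. Expression was measured on 6 Affymetrix Mouse Exon 1.0 ST arrays, 3 from buds kept in control medium and 3 from buds exposed to Fc-Eda-A1 (Fc-Eda hereafter), a recombinant form of the Tnf family ligand Ectodysplasin, for 4 h. Every embryo, control or treated, was an Eda null (Eda-/-) embryo of B6CBA background at E13.5, taken from 3 litters, so no array shows a bud with its own Eda. By the sample labels each embryo gave buds to both conditions, and the arrays therefore form 3 replicate pairs. Each pool held approximately 20 buds from 5 to 6 embryos by the sample descriptions. The buds are epithelial rudiments from which most, not all, of the surrounding mesenchyme had been dissected away. The values are a mixture of the remaining cells, and fewer cells of a type and less RNA per cell cannot be told apart in them. The RefSeq annotation used here paired none of the deposited identifiers with a gene symbol. Markers of the bud epithelium and of other cells, and the other genes of the Notch pathway, were therefore not analysed here.

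Notch receptors are membrane proteins activated by ligands of the Jagged and Delta-like families on a neighboring cell. Binding leads to cleavage of the receptor, and its intracellular part enters the nucleus and joins the DNA-binding protein Rbpj to switch on targets such as the Hes and Hey repressors. In the mammary gland the pathway is best known for its part in luminal cell fate. Eda acts through its receptor Edar and the transcription factor NF-κB.

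All values are log2 levels, 1 per array and gene, as the authors deposited them, and differences are Fc-Eda minus control on that scale. A level is not comparable between genes on these arrays, because each probe set binds with its own strength, so no level of 1 gene is set against that of another, and the median over all probe sets serves only as a mark for dim and bright. The array of control replicate 1 stood apart from the rest, with a median of 4.99 over all probe sets where the other 5 arrays lay between 4.80 and 4.83. Its interquartile range was 2.59, against 2.81 to 2.96. Treatment was tested in limma across all probe sets with the replicate pair as a block, and significance was judged by Storey's q-value. At a q-value of 0.05 limma called 0% of the probe sets and 0 of the 7 genes. The smallest q was 0.10 over all probe sets and 0.433 among the 7 genes. At an unadjusted p under 0.05, 1572 of the 25949 probe sets passed in limma, which is 6.06%, with 2.73% higher and 3.33% lower after treatment. Of the 7 genes, 1 was in each direction, Notch2 higher and Jag2 lower. IBMT, which lets the variance follow the level, called 0 of the 7, where 0.339% of all probe sets came out higher and 0.0231% lower. In the Cyber-T type of test, which regularises the variance of the pair differences, 1 gene was called, Jag2, which was lower, where 0.624% of all probe sets came out higher and 0.119% lower.

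**Figure D1:**
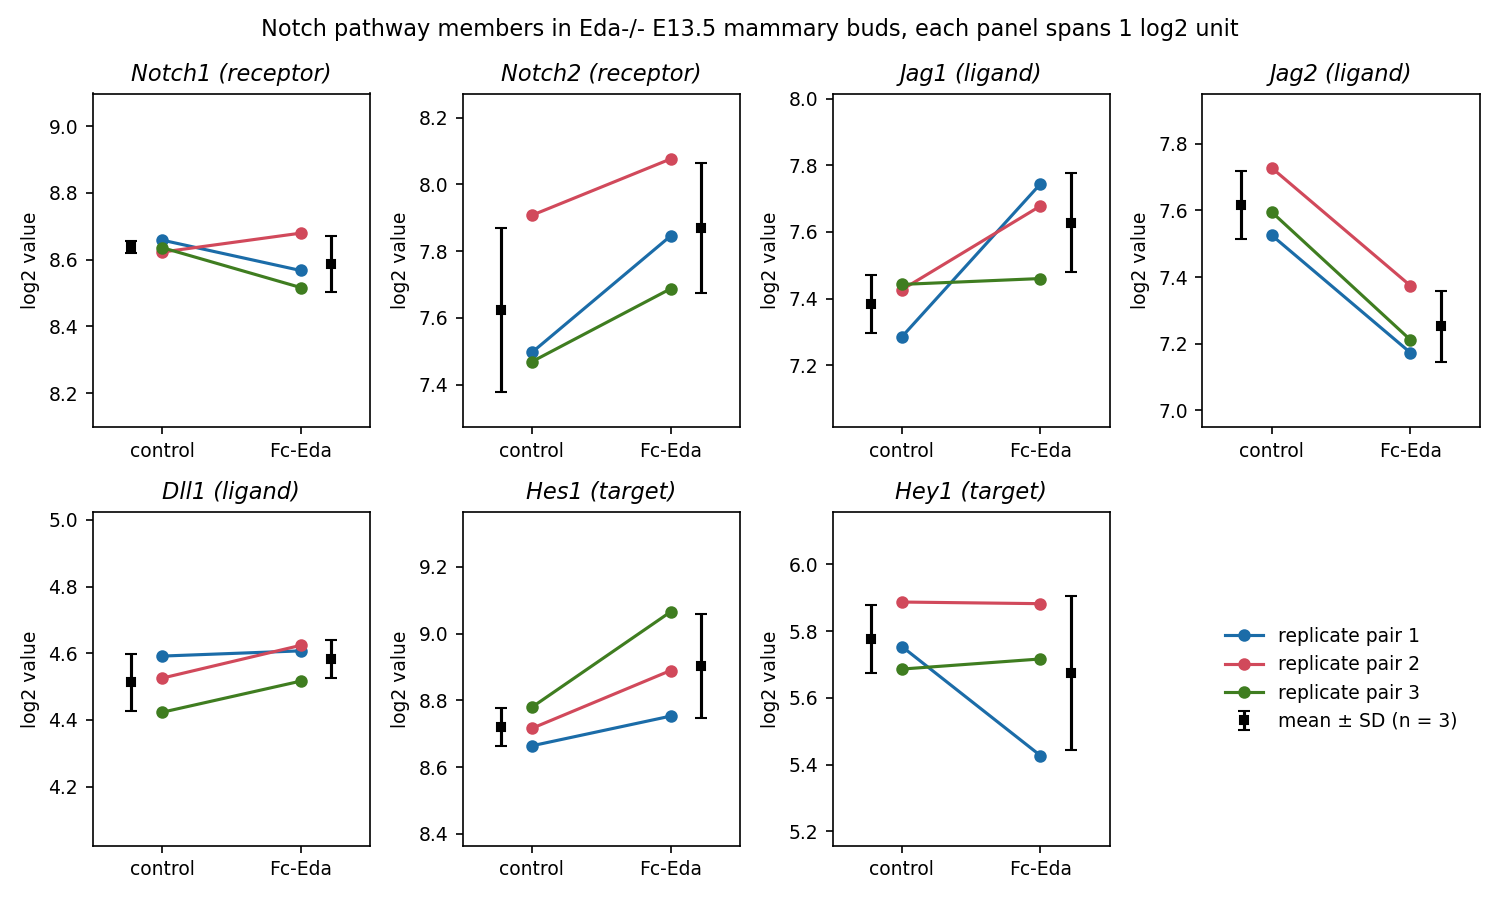
Log2 level (y axis) of each gene on the 3 control and 3 Fc-Eda arrays, with lines joining the arrays of a replicate pair and squares giving the mean ± SD of 3 arrays. Every panel spans the same height on the log2 scale, and the 3 lines of Jag2 run down in parallel while those of Notch2 and Hes1 run up.

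Jag2, the Jagged ligand known for its roles in limb and thymus development, showed the largest mean difference over the 3 pairs among the 7 genes. It was lower after Fc-Eda treatment. Its log2 level in control medium was 7.52, 7.73 and 7.59 in replicates 1, 2 and 3, and after treatment it was 7.17, 7.37 and 7.21. The highest treated array lay below the lowest control array, so the conditions did not overlap. Within the pairs the log2 difference was -0.35, -0.35 and -0.38, with a mean of -0.36 ± 0.018 (SD, n = 3), a change in level of -22.2%. The 3 differences were close to each other, since the median SD of pair differences was 0.107 among the 500 probe sets nearest to Jag2 in level. Limma, which moderates each gene's spread towards that of all probe sets, gave a standard error of 0.079, a 95% confidence interval of -0.56 to -0.16 and q = 0.433. The q was 0.073 in IBMT and 0.035 in the Cyber-T type test, so that Jag2 was past the threshold in 1 of the 3 kinds of test that the methods name. The call in the Cyber-T type test was lost without replicate 2 (q = 0.125) and without replicate 3 (q = 0.118), where the difference was -0.37 and -0.35, and it held without replicate 1 (q = 0.0031) and after cyclic loess normalization (q = 0.0090).

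The second Jagged ligand, Jag1, a ligand of both receptors described here, differed in the opposite direction and less evenly. In control medium its log2 level was 7.29, 7.43 and 7.44, and after treatment 7.74, 7.68 and 7.46. The conditions did not overlap, but the highest control array and the lowest treated array, both of replicate 3, were close. The pair differences were 0.46, 0.25 and 0.018, with a mean of 0.24 ± 0.22 (SD, n = 3). The 95% interval from limma ran from -0.041 to 0.53, and q was 0.74 in limma, 0.509 in IBMT and 0.469 in the Cyber-T type test. The interval included 0, and without replicate 1 the mean difference was 0.13. Over all probe sets the conditions did not overlap in 3.98% towards higher and 5.11% towards lower values after treatment. Among the 7 genes this was 1 in each direction, Jag1 and Jag2.

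Dll1, a Delta-like ligand, was at a log2 level of 4.59, 4.53 and 4.42 in control medium and 4.61, 4.62 and 4.52 after treatment. The treated array exceeded its own control in each pair, but the conditions overlapped. The mean difference was 0.069 ± 0.046 (SD, n = 3) with a 95% interval of -0.13 to 0.27 (q = 0.765 in limma). It was 0.14 after quantile normalization, 0.13 with each array centred on its median and 0.14 after cyclic loess. Dll1 was the only one of the 7 genes whose mean lay below the median of all probe sets. No detection call was used here, and whether this probe set stood above the background of the arrays is not known.

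Of the receptors, Notch2 was higher after treatment in each pair and Notch1 differed in no common direction. For Notch2 the log2 level was 7.50, 7.91 and 7.47 in control medium and 7.85, 8.08 and 7.69 after treatment. Replicate 2 was highest in both conditions, so the conditions overlapped although each treated array exceeded its own control. The pair differences of 0.35, 0.17 and 0.22 averaged 0.25 ± 0.093 (SD, n = 3), a level 18.5% higher. Limma gave a 95% interval of 0.029 to 0.46 and q = 0.67. The q-value was 0.298 in IBMT and 0.27 in the Cyber-T type test, so Notch2 passed the threshold in none of the 3.

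Notch1 is the receptor most studied in skin and mammary epithelium. Its log2 level in control medium was 8.66, 8.62 and 8.64, the narrowest spread of the 7 genes in that condition, with an SD of 0.018. After treatment it was 8.57, 8.68 and 8.52, on both sides of the controls. The mean difference was -0.051 ± 0.095 (SD, n = 3) and its 95% interval, from -0.27 to 0.17, included 0 (q = 0.787 in limma). Leaving out replicate 2 or replicate 3 moved the mean to -0.11 or -0.017, and it was -0.096 after cyclic loess.

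The target genes are read as a measure of receptor activity in many tissues. Hes1, a repressor of the bHLH class, was at a log2 level of 8.66, 8.72 and 8.78 in control medium and at 8.75, 8.89 and 9.07 after treatment. Each treated array exceeded its own control, and the conditions overlapped because the treated array of replicate 1 lay below the control of replicate 3. The pair differences were 0.089, 0.17 and 0.29, with a mean of 0.18 ± 0.099 (SD, n = 3). The 95% interval of -0.036 to 0.40 included 0, and q was 0.744 in limma, 0.444 in IBMT and 0.413 in the Cyber-T type test.

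Hey1, a related repressor of the Hey class, had no common direction in the 3 pairs. It was at a log2 level of 5.75, 5.89 and 5.69 in control medium and at 5.43, 5.88 and 5.72 after treatment. The treated array of replicate 1 was low, while the differences of replicates 2 and 3 were -0.0049 and 0.030. The mean difference of -0.10 ± 0.20 (SD, n = 3) rested on that pair, since it was 0.013 without replicate 1 (q = 0.761 in limma with all pairs). It was -0.022 with array weights and -0.044 after centring of the arrays.

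**Figure D2:**
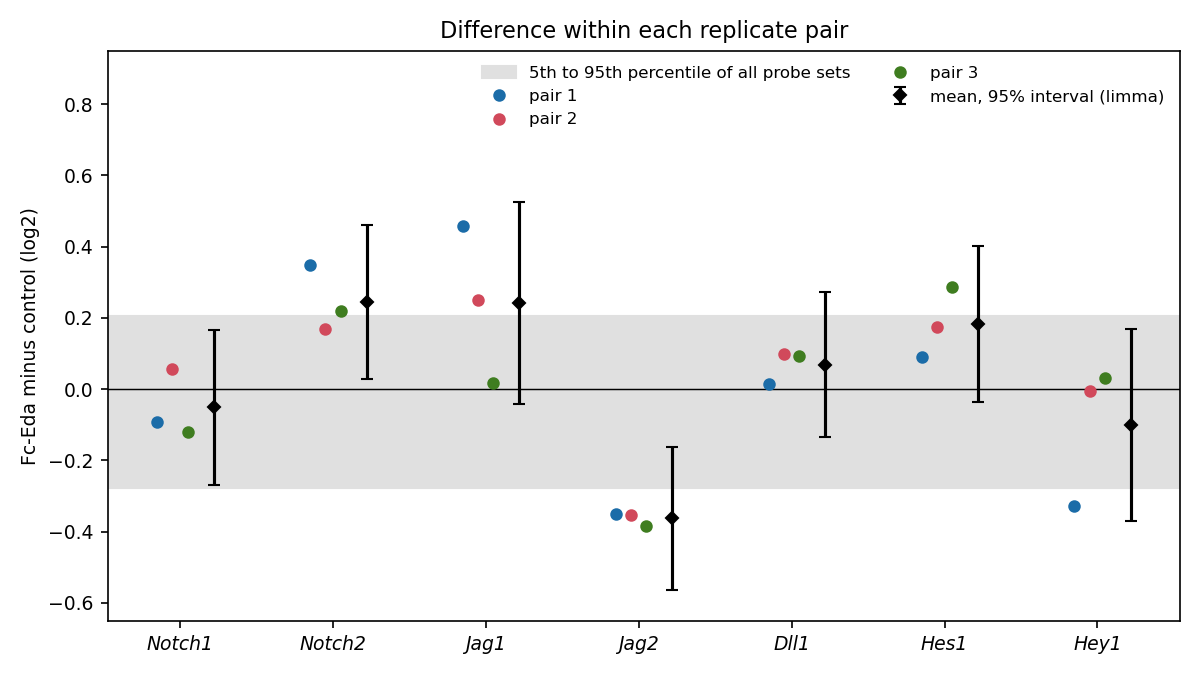
Fc-Eda minus control on the log2 scale (y axis) for each gene, with 1 point per replicate pair and the mean with its 95% interval from limma, against a grey band from the 5th to the 95th percentile of the mean difference over all 25949 probe sets. The band runs from -0.28 to 0.20, the mean of Jag2 lies below it and those of Notch2 and Jag1 lie above it. It covers probe sets of every level. Beyond the median of the 500 probe sets nearest in level in each pair, Jag2 averaged -0.41. On the same measure Notch2 and Jag1 averaged 0.187 and 0.197, below the upper end of the band at 0.204.

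Read together, 4 of the 7 genes were higher in all 3 pairs (Notch2, Jag1, Dll1 and Hes1), 1 was lower in all 3 (Jag2), and Notch1 and Hey1 had mixed directions. After cyclic loess 3 were higher in all 3 pairs. Over all probe sets 13.2% were higher in all 3 pairs and 15.3% lower. Above the median level, where 6 of the 7 genes lay, these shares were 21.1% and 12.7%. The median difference of the 7 genes was 0.069, against -0.024 over all probe sets, and the median size without regard to sign was 0.18 against 0.086. The median difference became 0.14 against -0.0015 with quantile normalization, 0.13 against 0.033 with centring and 0.14 against -1.1e-05 with cyclic loess. The list holds few genes and they were not tested as a set. Within the Jagged class Jag1 was higher and Jag2 lower in every pair.

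Pair 1 holds the array of control replicate 1, and its differences shifted with the level. Among the 500 probe sets nearest in level, the median difference in pair 1 was 0.14 around Notch2, 0.13 around Jag1, 0.13 around Jag2, 0.11 around Notch1 and 0.10 around Hes1. It was 0.037 around Hey1 and -0.22 around Dll1. In pairs 2 and 3 the same medians lay between -0.0073 and 0.021 for all 7 genes. Set against these, the difference of Jag2 in pair 1 was -0.49 and that of Notch2 0.21, while that of Hes1 was -0.011. The differences of Jag2, Notch2 and Dll1 kept their direction beyond the level-matched median in all 3 pairs, with 0.23, 0.088 and 0.075 for Dll1. Jag1 exceeded its median by 0.33 and 0.25 in pairs 1 and 2 but by only 0.011 in pair 3. Hes1 exceeded its median in pairs 2 and 3 and lay close to it in pair 1. After cyclic loess, which removes such level-dependent shifts, Jag2 differed by -0.41 and Notch2 by 0.20.

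**Figure D3:**
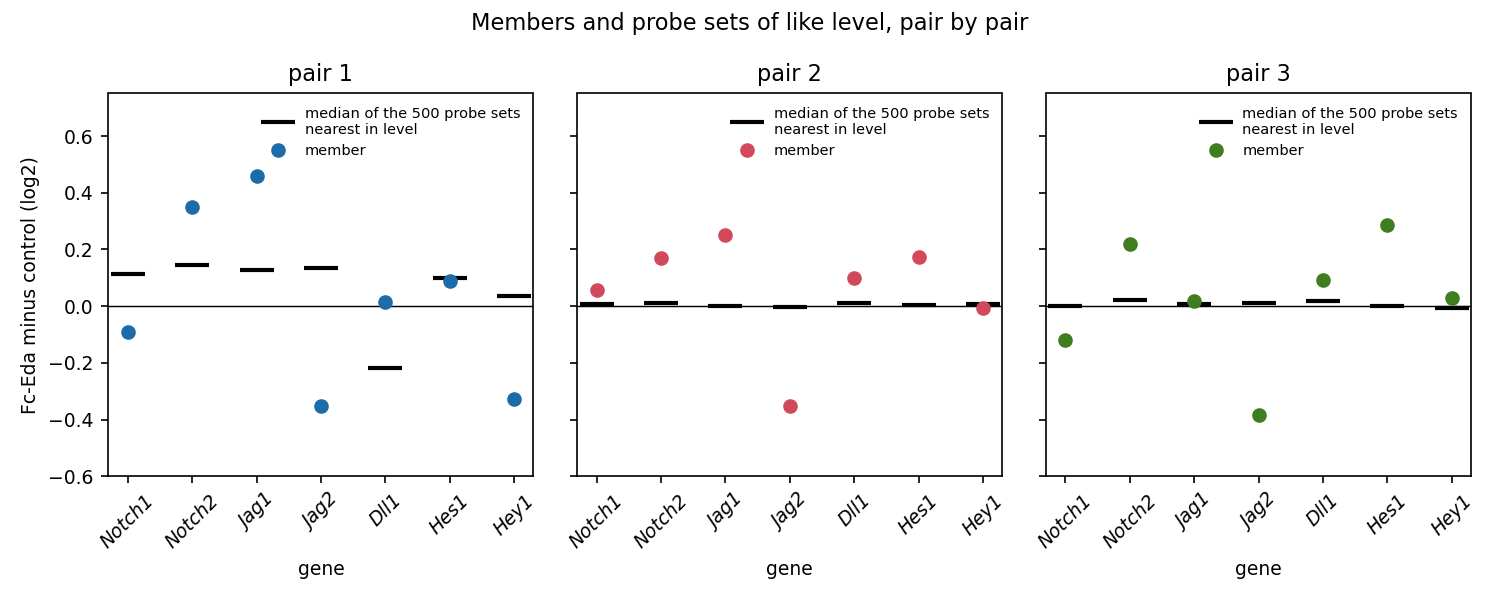
Fc-Eda minus control on the log2 scale (y axis) of each gene (points) in the 3 replicate pairs, with a bar at the median difference of the 500 probe sets nearest to it in level. In pair 1 the bars range from -0.22 to 0.14, in pairs 2 and 3 they lie near 0, and Jag2 lies below its bar in each panel.

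For the genes with the 3 largest mean differences, the 250 bases before the transcription start are given from RefSeq (GRCm38.p6), read 5′ to 3′ on the strand of the gene. They are shown because Edar signals through NF-κB and Notch receptors through Rbpj, and both have a known motif. Capitals mark the match to the κB consensus, the motif bound by NF-κB. The windows are chr3:98013288-98013537 on the plus strand for Notch2, chr2:137116521-137116770 on the minus strand for Jag1 and chr12:112929496-112929745 on the minus strand for Jag2.
Notch2: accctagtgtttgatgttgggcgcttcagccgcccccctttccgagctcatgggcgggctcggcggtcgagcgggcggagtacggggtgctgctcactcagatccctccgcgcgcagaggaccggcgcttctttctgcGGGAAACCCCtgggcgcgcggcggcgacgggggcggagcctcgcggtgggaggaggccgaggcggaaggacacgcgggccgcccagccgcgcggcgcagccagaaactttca
Jag1: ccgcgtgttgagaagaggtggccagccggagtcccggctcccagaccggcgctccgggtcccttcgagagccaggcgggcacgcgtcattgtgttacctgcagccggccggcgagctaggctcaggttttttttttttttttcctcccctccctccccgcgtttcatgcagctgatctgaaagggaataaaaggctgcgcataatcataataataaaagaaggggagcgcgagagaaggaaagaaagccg
Jag2: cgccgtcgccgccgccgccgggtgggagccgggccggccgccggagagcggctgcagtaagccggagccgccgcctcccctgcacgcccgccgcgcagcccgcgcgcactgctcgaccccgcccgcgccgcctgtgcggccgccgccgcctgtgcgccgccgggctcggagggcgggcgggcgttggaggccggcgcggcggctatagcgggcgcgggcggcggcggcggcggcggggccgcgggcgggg
The match in Notch2 spans bases 112 to 103 before the start and is read on both strands at the same place. No other match to the κB consensus, and none to the Rbpj core TGGGAA on either strand, was in these 3 windows or in the 3 windows that the table holds for Notch1 and Dll1. Of all 32851 promoter windows of this length, 3.9% held the κB consensus and 21.6% held the Rbpj core. A match describes the letters and does not show binding. RefSeq windows were matched for 5 of the 7 genes, and Hes1 and Hey1 had no entry.

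The probe sets most like Jag2 and Notch2 over the 6 arrays were sought among those above the median level, by Pearson's r on the log2 levels. They are given by identifier because the RefSeq annotation used here did not name them. For Jag2 they were ENSMUSG00000040710 with r = 0.987 and ENSMUSG00000045667 with r = 0.973, whose mean log2 differences were -0.44 and -0.18. For Notch2 they were ENSMUSG00000031077 with r = 0.999 and ENSMUSG00000027651 with r = 0.996, with differences of 0.14 and 0.061. Among 12973 candidates, r was above 0.95 in 9 for Jag2 and in 145 for Notch2. The 6 arrays share embryos within pairs, and r over so few points is given as a description only.

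**Figure D4:**
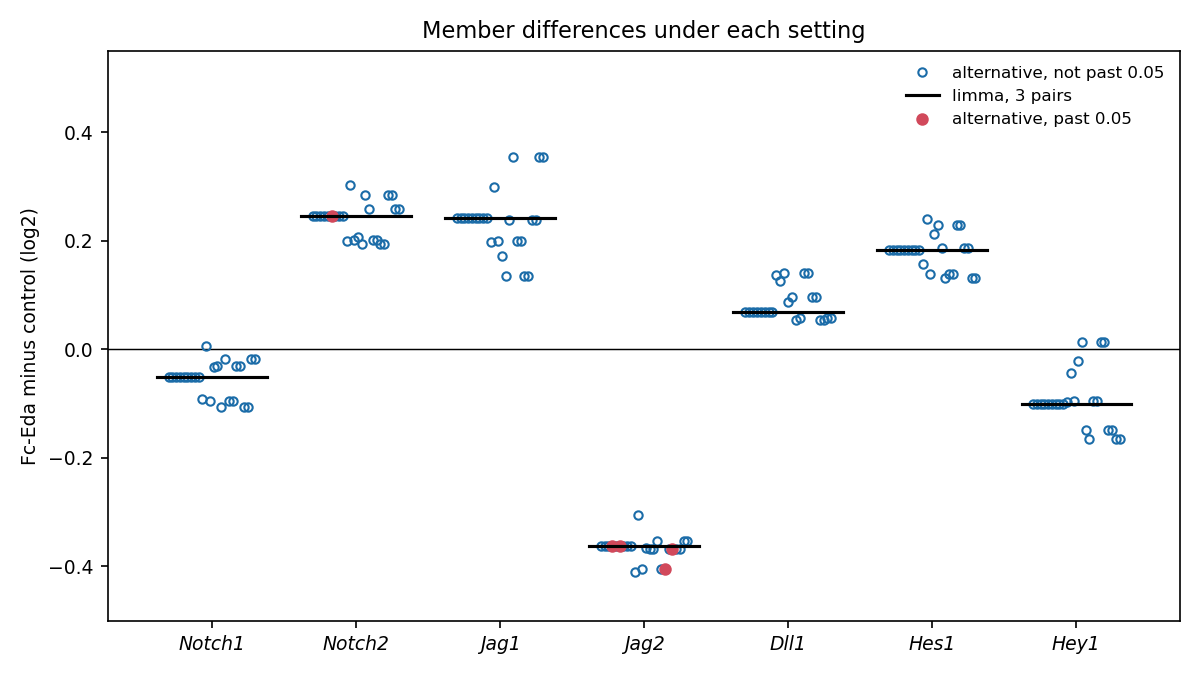
Fc-Eda minus control on the log2 scale (y axis) of each gene in limma with 3 pairs (bars) and under 24 alternatives, 23 for Dll1, in processing, test or pairs used (circles, many of which coincide because only 7 alternatives change the difference itself), filled where the q-value, adjusted p or, for the methods' test without adjustment, the p lay under 0.05. Jag2 stays between -0.41 and -0.31, Notch1 crosses 0 with centring and Hey1 without replicate 1.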

How the data were processed

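The 6 arrays, 3 per condition, were grouped and paired by the sample titles and the design text, by which control and treated buds came from the same embryos. The table that the authors deposited gives log2 values for 25949 probe sets under Ensembl gene identifiers. The labels name RMA, which corrects background, normalizes and summarises probes, with no version, and the genome build is not given in the sources used here. RMA summarises the probes of a gene, so isoforms are not separated. The names of the 7 genes came with the list that defined them, and the RefSeq table paired 0 of the identifiers with a symbol. The further lists of named genes (other Notch pathway genes, treatment check genes and cell type markers) were therefore not analysed here. The members and lists were chosen with earlier results of these data known.

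The fit used limma (version 3.58.1, R 4.3.3) on every probe set, with the replicate pair as a block as in the study's methods, and Storey q-values were computed over all probe sets with a threshold of 0.05. The pairing rests on the shared embryos. The deviations of paired arrays from their condition means correlated with r = 0.079, 0.29 and 0.29, and those of arrays of different pairs with r between -0.31 and 0.088, so that pair 1 lay within the latter range. IBMT (loess span 0.75) and the Cyber-T type test (window 101, prior weight 10) were written out, not run in the authors' programs. All tests were run on simulated data, where the spread of the noise depended only on the level and no pair shifted with level. Those runs checked the code and cannot tell which test suits these arrays. All 7 genes are described with the values of every array, by rule. Alternatives were no block, other tests and adjustments, filters on level at the 25th percentile and the median, quantile normalization, centring, cyclic loess, array weights and leaving out each pair, with a few combinations of these added after the data were seen. The number of arrays limits the precision.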

Additional observations from a re-analysis of the deposited data

How the results depend on the processing

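Of the 24 alternatives, 8 were chosen after seeing the data, namely the Cyber-T type test and IBMT after cyclic loess or without each pair. A change of test, adjustment or filter leaves the difference itself as it is. Differences unlike those of limma with 3 pairs came from 15 alternatives, which gave only 7 distinct sets. The sets came from quantile normalization, centring, cyclic loess, array weights and each pair left out. Jag2, Notch2, Jag1, Dll1 and Hes1 kept their direction in these 7 sets. Jag2 ranged from -0.41 to -0.31 and Notch2 from 0.19 to 0.30. Notch1 turned from -0.051 to 0.0053 with each array centred on its median, was -0.096 after cyclic loess, and ranged from -0.11 to -0.017 over the pairs left out. Hey1 turned from -0.10 to 0.013 without replicate 1. Over the pairs left out Hey1 ranged from -0.17 to 0.013, and it was -0.022 with array weights and -0.044 with centring. Jag2 was past the threshold in the Cyber-T type test, at -0.36 (q = 0.035), also after cyclic loess at -0.41 (q = 0.0090) and without replicate 1 at -0.37 (q = 0.0031), but not without replicate 2 (q = 0.125) or replicate 3 (q = 0.118). It was also past 0.05, at -0.36, in an ordinary paired t-test on the 3 pair differences, with no moderation of the variance and no adjustment. With a pair left out its difference lay between -0.37 and -0.35. Notch2, at 0.25, was past it only in that t-test. These made the count of genes called 1 in the Cyber-T type test, also after cyclic loess, where it called 0.952% of all probe sets. The count was 2 in the ordinary paired t-test without adjustment, which called 5.77%, against 0 in limma. With a pair left out the count lay between 0 and 1. It was 1 only in the Cyber-T type test without replicate 1, which called 337 higher and 175 lower of all 25949 probe sets. The median difference of the 7 genes was 0.069, and became 0.14 with quantile normalization, 0.13 with centring and 0.14 with cyclic loess. With a pair left out, the count of genes lower in every remaining pair lay between 1 and 2, against 1, and over all probe sets the share lower in both remaining pairs lay between 26% and 30.2%. The count higher in every pair was 3 after cyclic loess and 3 with the filter at the median level, which leaves Dll1 out, against 4, and Dll1 went from 0.069 to 0.14 with quantile normalization, 0.13 with centring and 0.14 with cyclic loess.

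Over all probe sets limma called 0 higher and 0 lower. Without the pairing (no replicate block) 3 were higher, and the call of none of the 7 genes changed. The calls were 88 higher and 6 lower in IBMT, 162 and 31 in the Cyber-T type test and 90 and 6 where limma used a trend with robust moderation. Without adjustment the ordinary paired t-test called 802 and 696, and it called 1 lower after Benjamini-Hochberg adjustment. The filter at the median level gave 85 and 6, centring 56 and 1, and array weights 11 higher. On values after cyclic loess, 18 were higher and 1 lower in IBMT, where the Cyber-T type test had 186 and 61. With a pair left out the calls of limma lay between 0 and 10 higher and between 0 and 1 lower. Leaving out pair 1, pair 2 and pair 3 in this order, higher and lower calls in IBMT numbered 0 and 0, then 54 and 2, then 256 and 269. In the Cyber-T type test they numbered 337 and 175, then 82 and 8, then 78 and 25. The causes were not tested. The alternatives for the other Notch pathway genes were not run. Signal over background is not known.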
